A study of Mus musculus with 13 samples.

Results

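The genes described here are 47 vascular genes of mouse basal cell carcinoma (BCC), chosen by name as markers and regulators of blood endothelium, lymphatic endothelium, pericytes and vessel growth, out of 21100 genes in the count table. They were sorted by role into 17 genes of the blood endothelial surface, junctions and matrix, 9 vascular receptors, 7 endothelial transcription factors, 5 lymphatic endothelial genes, 2 pericyte genes and 7 angiogenic factors and tip cell genes. All 47 were measured in every tumor and passed the filter on low counts. Defining genes of blood endothelium (Pecam1, Cdh5, Tie1, Emcn, Egfl7 and, outside the 47, Kdr) were present in every tumor, while the lymphatic factor Prox1 was near the limit of detection in several.

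Blood vessels are lined by endothelial cells, which hold together through junction proteins such as VE-cadherin and respond to growth factors through receptors such as the VEGF, Tie and apelin receptors. Pericytes wrap around the smallest vessels and steady them, and lymphatic vessels, which drain fluid, are lined by endothelium that depends on Prox1 and on the VEGF-C receptor Flt4. Growing tumors take their blood supply from the host, and in a whole tumor many of these genes are read as markers of stromal vessels. Some, such as Pdpn and Cspg4, are made by other cells too, and which cells made the RNA was not measured here.

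The series compared a pair of tumor models to characterize how alike they are. The genetically engineered tumors (GEM-BCC) were 9 intradermal tumors from 7 mice of genotype Ptch1+/- K14-CreER2 p53fl/fl (Cre spelled CreERT2 in the series' own description), in which 3 tamoxifen injections of 300 µg and 4 Gy of X-rays were given. Tamoxifen switches on a Cre recombinase that is made under the keratin 14 promoter, so p53 is deleted only in keratin 14 cells and their descendants. The transplantable tumors (Tp-BCC) were 4 subcutaneous tumors from 4 Ptch1+/-p53fl/fl mice without Cre, each grown in the right flank from 2000000 inoculated cells of GEM-BCC origin. The study's methods describe serial passage of Tp-BCC cells from host to host, and the passage of the sequenced tumors is not given in the sources used here. All mice were female and immunocompetent and carried 1 intact Ptch1 allele, and the Tp-BCC hosts had floxed p53 alleles but no Cre to delete them. The 4 Tp-BCC tumors descended from a single GEM-BCC tumor, GEM2 and GEM3 came from 1 mouse, and GEM7 and GEM8 came from another. Each tumor gave 1 library of messenger RNA, which held 28075317 to 32629102 counts for GEM-BCC tumors and 15388027 to 17494912 for Tp-BCC tumors. Batch 1 of the labels is GEM-BCC throughout and batch 2 is Tp-BCC throughout, so batch, host, site and model cannot be told apart in any difference given here.

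Of the 47 vascular genes, 15 were higher in Tp-BCC and 0 were lower at an adjusted p under 0.05. Among all 14390 genes tested, 11.1% passed as higher and 8.35% as lower, and 26 of the 47 reached an unadjusted p under 0.05, against 34.5% of all genes. In either direction 19.4% of all genes passed. The 47 genes were chosen with earlier results of these data known, so these shares describe the list and do not test it. The median log2 fold change of the vascular genes was 0.74, with 39 values above 0 and 8 below, while the median over all genes was -0.03. In 9 genes every Tp-BCC tumor lay above every GEM-BCC tumor (Cdh5, Esam, Robo4, Nos3, Tie1, Eng, Aplnr, Sox17 and Tal1), and in 0 genes did every Tp-BCC tumor lie below, while the background of such separation was 5.50% of all genes upward and 4.45% downward. A log2 fold change above 2 beside an adjusted p under 0.05 was reached by Eng and Aplnr, and by 5.57% of all genes in either direction. The plot of log2 fold changes by role shows that the genes that passed were spread over blood endothelium, receptors, transcription factors and growth factors, with 1 lymphatic gene and no pericyte gene among them. Of the 15 genes that passed, 11 had a GC content above the median of the 47 genes (52.1%). The Tp-BCC tumors differed from each other by a trend with GC content, as described below. The tumors were measured in bulk, so more cells of a type and more RNA per cell cannot be told apart.

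**Figure D1:**
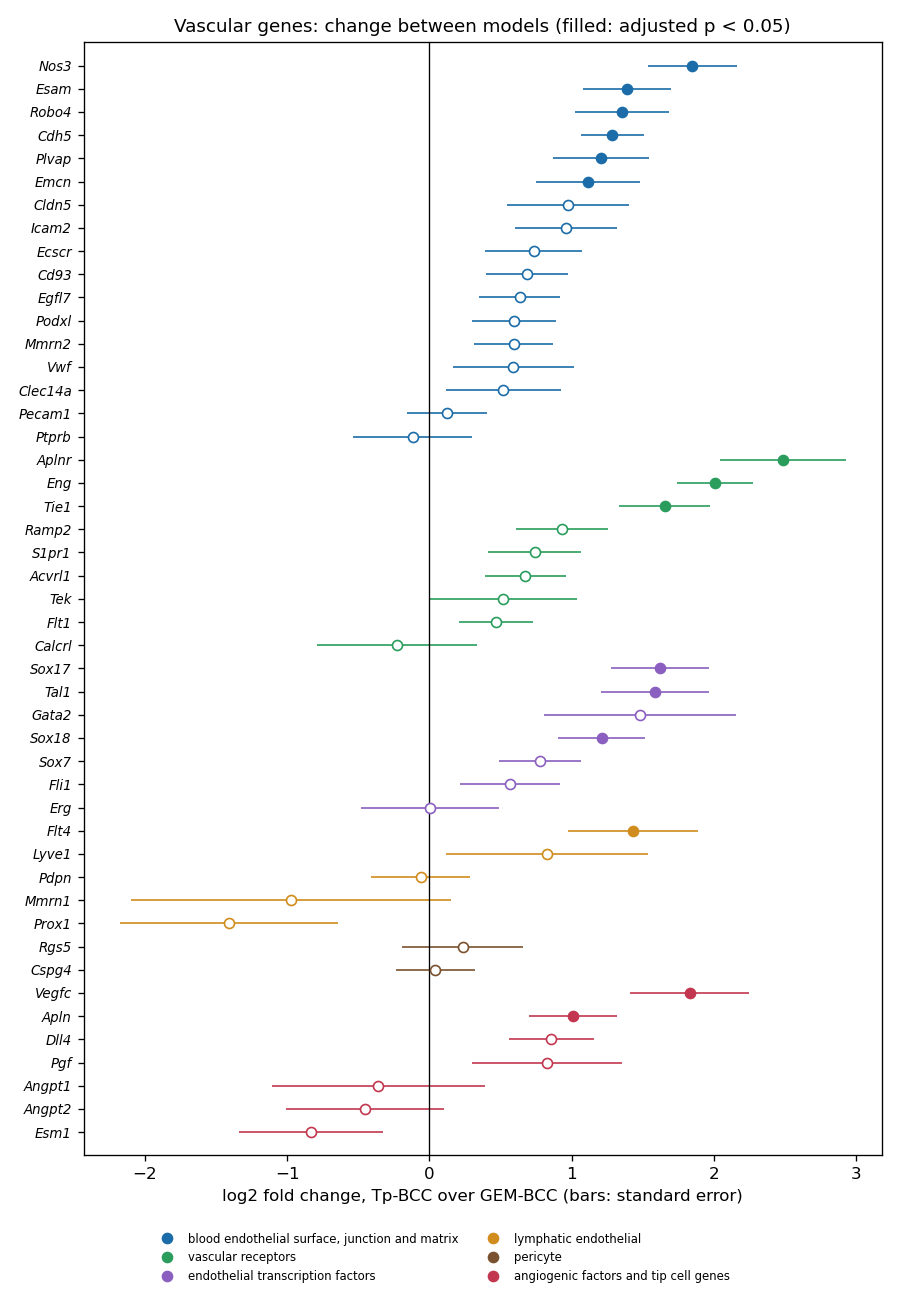
The log2 fold change of Tp-BCC over GEM-BCC (horizontal axis) is plotted for each of the 47 genes (vertical axis), coloured by role, with bars for the standard error and filled points for an adjusted p under 0.05. The 15 filled points all lie to the right of 0, with Aplnr at 2.48 and Eng at 2.01 farthest out, while the 2 pericyte genes lie at 0.04 and 0.23 and Prox1 lies at -1.41.

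Genes of the blood endothelial surface, junctions and matrix gave 6 of 17 higher, 0 lower and a median log2 fold change of 0.73. Over all genes 11.1% passed as higher and 8.35% as lower, the share to set beside the counts of each role. Cdh5 encodes VE-cadherin, the adhesion molecule of endothelial junctions. Levels are given in CPM, in which the counts of each library are set against its own scaled total. Cdh5 ran from 29.6 to 68.8 CPM, with a median of 52.3, over the 9 GEM-BCC tumors, and stood at 109 CPM in TP1, 158 in TP2, 107 in TP3 and 109 in TP4. Every Tp-BCC tumor lay above the highest GEM-BCC tumor, and 3 of the 4 sat close together. The log2 fold change was 1.29 ± 0.22 (SE), with an adjusted p of 0.00116. Pecam1, which encodes CD31, the usual stain for vessels, gave a different picture. Its level ran from 27.8 to 83.9 CPM with a median of 57.9 in GEM-BCC, against 78.9, 64.5, 80.2 and 32.9 CPM in TP1 to TP4. The models overlapped almost completely, with TP4 near the bottom of the GEM-BCC range, and the log2 fold change was 0.12 ± 0.28 (SE; adjusted p = 0.788).

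Esam, an adhesion molecule of endothelial tight junctions, ran from 10.4 to 30.1 CPM with a median of 19.6 in GEM-BCC, and was 31.8, 61.1, 34.2 and 72.2 CPM in TP1 to TP4. TP1 and TP3 lay just above the highest GEM-BCC tumor and TP2 and TP4 well above it, with a log2 change of 1.39 ± 0.31 (SE; adjusted p = 0.00628). Robo4, an endothelial guidance receptor that steadies vessels, ran from 6.46 to 21.3 CPM (median 11.7) in GEM-BCC and stood at 26.5, 34.3, 22.4 and 45.7 CPM in TP1 to TP4. The groups did not overlap, although TP3 lay close to the highest GEM-BCC tumor, and the log2 fold change was 1.35 ± 0.33 (SE; adjusted p = 0.0106, or 0.0539 without TP4). Nos3 makes the nitric oxide synthase of endothelium, which relaxes vessels. It ran from 2.07 to 4.88 CPM (median 3.75) in GEM-BCC, with 7.89, 16.3, 7.60 and 22.6 CPM in TP1 to TP4. Even the lowest Tp-BCC tumor stood clear of all GEM-BCC tumors, and the log2 change of 1.85 ± 0.31 (SE; adjusted p = 0.00102) was the highest of the 17 genes.

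Plvap and Emcn also passed, with overlap between the models. Plvap builds the diaphragms of fenestrated capillaries and ran from 17 to 63.1 CPM (median 43.9) in GEM-BCC, against 55.1, 102, 56.0 and 135 CPM in TP1 to TP4. TP1 and TP3 fell inside the upper part of the GEM-BCC range and TP2 and TP4 lay above it, with a log2 change of 1.21 ± 0.34 (SE; adjusted p = 0.0217). Without TP2 the adjusted p of Plvap was 0.0832 and without TP4 it was 0.125. Emcn, endomucin, is a sialomucin of capillary and venous endothelium. It ran from 4.58 to 16 CPM (median 9.27) in GEM-BCC and was 25.6, 7.26, 27.5 and 19.0 CPM in TP1 to TP4. Here TP2 was below the GEM-BCC median while the other Tp-BCC tumors were above all GEM-BCC tumors, whereas for Plvap it was TP2 and TP4 that stood above TP1 and TP3. Emcn had a log2 change of 1.11 ± 0.37 (SE; adjusted p = 0.0443), and the call was lost when any 1 tumor other than GEM5 and TP2 was left out, with an adjusted p of up to 0.113.

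The remaining genes of this role did not pass. Cldn5 (claudin 5, the sealing protein of endothelial tight junctions), Icam2, Ecscr, Cd93, Egfl7, Podxl, Mmrn2, Vwf (von Willebrand factor, which binds platelets) and Clec14a had log2 fold changes from 0.52 to 0.98, and Ptprb (the phosphatase that acts on VE-cadherin and Tie2) had -0.12. Clec14a was the only gene of the role that was highest in GEM2, at 35.5 CPM, where 9 of the 17 genes were lowest.

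**Figure D2:**
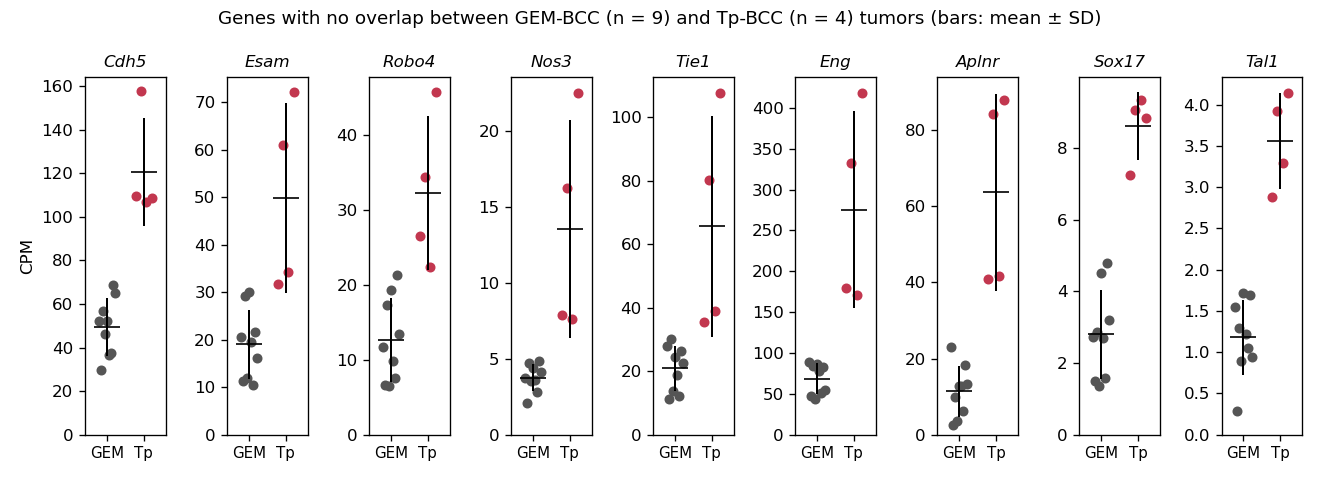
CPM (vertical axis) is plotted in 9 panels, one for each gene in which the Tp-BCC tumors (red, n = 4) lay above all GEM-BCC tumors (grey, n = 9), with the horizontal bar at the mean and the vertical bar for the SD. In Eng the GEM-BCC tumors reach 88.4 CPM and the Tp-BCC tumors start at 171, while in Esam and Robo4 the groups almost touch.

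Among the vascular receptors, 3 of 9 were higher, 0 were lower, and the median log2 fold change was 0.74. Eng is endoglin, a co-receptor for TGF-beta and BMP ligands on growing endothelium. It ran from 44.2 to 88.4 CPM (median 77.8) in GEM-BCC and stood at 180, 333, 171 and 419 CPM in TP1 to TP4. The lowest Tp-BCC tumor lay far above the highest GEM-BCC tumor, and the means were 68.5 ± 18.7 CPM (SD, n = 9) and 276 ± 121 CPM (SD, n = 4). The log2 change of 2.01 ± 0.27 (SE) had the lowest adjusted p of the 47 genes, 0.000133. Acvrl1 encodes ALK1, the type I receptor that works with endoglin, and had a log2 fold change of 0.67 with an adjusted p of 0.108.

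Aplnr is the receptor for apelin on sprouting endothelium and on veins. Its level ran from 2.69 to 23.0 CPM (median 12.7) in GEM-BCC, and was 40.9, 84.3, 41.6 and 87.8 CPM in TP1 to TP4. The GEM-BCC tumors themselves were spread widely, with GEM2 lowest and GEM1 highest, yet none came near the Tp-BCC tumors. The mean rose 5.59-fold, and the log2 change of 2.48 ± 0.44 (SE; adjusted p = 0.00143) was the highest of the 47 genes. Apln, the ligand, is made by tip cells and under low oxygen, and ran from 19.8 to 78.6 CPM (median 39.1) in GEM-BCC. It stood at 68.9, 87.7, 65.2 and 134 CPM in TP1 to TP4, so that TP1 and TP3 lay inside the GEM-BCC range. The log2 fold change of Apln was 1.01 ± 0.31 (SE; adjusted p = 0.0315), a call that was lost without GEM2, GEM4, GEM5, GEM7, TP2 or TP4, with an adjusted p of up to 0.161.

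Of the genes for the Tie receptors, which serve the angiopoietins, Tie1 passed and Tek did not. Tie1 is the orphan partner of Tie2, and it ran from 11.4 to 30.1 CPM (median 22.6) in GEM-BCC and was 35.4, 80.4, 39.0 and 108 CPM in TP1 to TP4. All Tp-BCC tumors were above all GEM-BCC tumors, and the log2 fold change was 1.65 ± 0.32 (SE; adjusted p = 0.00271). Tek, which encodes Tie2, the receptor that binds the angiopoietins, had a log2 change of 0.52 ± 0.52 (SE; adjusted p = 0.502), with 18.1, 5.59, 17 and 2.71 CPM in TP1 to TP4. Tie1 was higher in TP2 and TP4 than in TP1 and TP3, and Tek was lower there. Whether the change of Tie1 differed from that of Tek was not tested.

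Ramp2, the partner protein that turns Calcrl into an adrenomedullin receptor, was the most abundant vascular receptor gene per length, at 88.2 CPM per kb in GEM-BCC and 168 in Tp-BCC. It ran from 33.2 to 120 CPM (median 46.9) in GEM-BCC and stood at 83.3, 131, 73.8 and 156 CPM in TP1 to TP4. TP1 and TP3 were inside the GEM-BCC range, and the log2 change of 0.93 ± 0.32 (SE) missed the threshold at an adjusted p of 0.0556. Without GEM1, GEM3 or TP3 it passed, with an adjusted p of 0.0153, 0.0410 and 0.0401. Calcrl itself had -0.23 ± 0.56 (SE; adjusted p = 0.802), with 4.41, 0.514, 7.0 and 0.714 CPM in TP1 to TP4. Flt1, the VEGF receptor 1, and S1pr1, the sphingosine 1-phosphate receptor, had log2 fold changes of 0.47 and 0.74 and did not pass.

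The stretches just upstream of Eng, Tie1 and Robo4 are shown because the models did not overlap in these 3 genes and the stretches held a motif match. They are the 250 bases before the annotated start in the RefSeq table for GRCm38.p6, written 5′ to 3′ on the gene's strand. Capitals mark AGGAAG or its reverse complement CTTCCT, one sequence that holds GGAA, the core that Ets factors bind. Other places in the windows with GGAA or TTCC are not marked. The windows are chr2:32646345-32646594 on the plus strand for Eng, chr4:118489850-118490099 on the minus strand for Tie1 and chr9:37401722-37401971 on the plus strand for Robo4.
Eng: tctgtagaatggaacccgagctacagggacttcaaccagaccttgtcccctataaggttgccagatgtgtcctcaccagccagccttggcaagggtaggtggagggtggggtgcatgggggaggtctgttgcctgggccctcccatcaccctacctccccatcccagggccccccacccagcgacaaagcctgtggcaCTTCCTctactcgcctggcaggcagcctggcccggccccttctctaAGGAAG
Tie1: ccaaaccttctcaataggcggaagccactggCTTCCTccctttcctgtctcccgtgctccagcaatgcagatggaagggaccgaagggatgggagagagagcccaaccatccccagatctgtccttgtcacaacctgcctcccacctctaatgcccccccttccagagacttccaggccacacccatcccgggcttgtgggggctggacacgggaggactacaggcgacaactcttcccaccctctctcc
Robo4: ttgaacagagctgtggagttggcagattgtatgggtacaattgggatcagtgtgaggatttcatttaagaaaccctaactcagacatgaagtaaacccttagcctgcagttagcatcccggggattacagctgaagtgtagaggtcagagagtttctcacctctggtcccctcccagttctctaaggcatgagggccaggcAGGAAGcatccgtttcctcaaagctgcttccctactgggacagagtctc
Eng held 2 matches, Tie1 held 1 and Robo4 held 1. Of the 47 genes, 24 had an entry, and 9 of these held a match on either strand, as did 5 of the 8 that passed and had an entry. Over all 32851 windows of the same length 29.48% held a match, and over all genes with an entry 32.32% did. The motif was picked after several had been looked at, and a match describes the letters of the window only.

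The endothelial transcription factors had the highest median of the 6 roles, 1.21, with 3 of 7 higher and 0 lower. They also had the highest median GC content of the 6 roles, 55.6%. With the trend of each tumor with GC content removed, as described below, their median was 0.85. The receptors then had 0.79 and the blood endothelial genes 0.77. Sox17, Sox18 and Sox7 are the SoxF factors, which direct arterial and lymphatic identity. Sox17 ran from 1.35 to 4.79 CPM (median 2.73) in GEM-BCC and stood at 7.24, 9.06, 9.34 and 8.85 CPM in TP1 to TP4. The 4 Tp-BCC tumors lay close to each other and above all GEM-BCC tumors, and the log2 fold change was 1.62 ± 0.34 (SE; adjusted p = 0.00470). Sox18, which also acts in hair follicle development, ran from 65.6 to 199 CPM (median 124) in GEM-BCC, with 223, 349, 183 and 468 CPM in TP1 to TP4. TP3 fell below the highest GEM-BCC tumor and the other Tp-BCC tumors lay above it, with a log2 change of 1.21 ± 0.31 (SE; adjusted p = 0.0131). Without TP2 or TP4 the adjusted p of Sox18 was 0.0542 and 0.0776. Per length, Sox18 stood far above the other SoxF genes, at 81.5 CPM per kb in GEM-BCC against 1.85 for Sox17 and 1.68 for Sox7. Sox7 had a log2 fold change of 0.78 and an adjusted p of 0.0703.

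Tal1 and Gata2 act in endothelium and in blood cells. Tal1 ran from 0.291 to 1.71 CPM (median 1.23) in GEM-BCC and was 2.88, 3.92, 3.29 and 4.14 CPM in TP1 to TP4, from 49 to 61 counts. The groups did not overlap, and the log2 fold change was 1.58 ± 0.38 (SE; adjusted p = 0.0100). Gata2 had a log2 fold change of nearly the same size, 1.48 ± 0.68 (SE), but did not pass (adjusted p = 0.133). It stood at 14.9 CPM in GEM5, above all Tp-BCC tumors, which had from 4.85 to 11.3 CPM, while its GEM-BCC median was 1.42 CPM. Without GEM5, Gata2 passed as higher in Tp-BCC. The markers of mast cells, which also use Gata2 and Tal1, summed to 3.92 to 13.9 CPM in GEM-BCC and 69.9 to 158 CPM in Tp-BCC. That sum was mostly Kit, with a log2 fold change of 4.32, and 1 of the 6 mast cell markers tested passed. Cpa3, a mast cell protease, ran from 0.0646 to 1.23 CPM in GEM-BCC and from 0.707 to 2.88 CPM in Tp-BCC, and Fcer1a was at 0 in all Tp-BCC tumors. Platelet markers summed to 8.34 to 26.5 CPM in GEM-BCC and 16.5 to 34.1 CPM in Tp-BCC. The part of these cells in the result for Tal1 and Gata2 was not tested.

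Erg and Fli1, the Ets factors that keep endothelial identity, did not pass. Erg ran from 2.69 to 18.6 CPM (median 7.13) in GEM-BCC and was 10.6, 6.62, 11.4 and 3.14 CPM in TP1 to TP4. The Tp-BCC tumors lay within the GEM-BCC range, and the log2 change of 0.00 ± 0.49 (SE; adjusted p = 0.996) changed sign under 13 of 25 other settings. Fli1 had 0.57 ± 0.35 (SE; adjusted p = 0.268).

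Lymphatic genes were split, with 1 of 5 higher, 0 lower and a median log2 fold change of -0.06. Flt4, the receptor for VEGF-C and VEGF-D, ran from 2.69 to 12.4 CPM (median 4.48) in GEM-BCC and stood at 8.36, 24.5, 7.72 and 27.7 CPM in TP1 to TP4. TP1 and TP3 lay inside the GEM-BCC range while TP2 and TP4 lay well above it. The log2 fold change was 1.43 ± 0.46 (SE; adjusted p = 0.0402), and the call was lost without GEM2, GEM4, GEM5, GEM6, GEM7, GEM9, TP2 or TP4, with an adjusted p of up to 0.182. Prox1, the factor that sets lymphatic identity and is largely absent from blood endothelium, ran from 2 to 39 counts in GEM-BCC and had 2, 4, 1 and 6 counts in TP1 to TP4. These counts correspond to 0.0598 to 1.28 CPM in GEM-BCC and 0.0598 to 0.428 CPM in Tp-BCC, and the log2 change of -1.41 ± 0.77 (SE) did not pass (adjusted p = 0.207).

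Of the other lymphatic genes, Pdpn (podoplanin, made also by keratinocytes and fibroblasts) was the most abundant per length, at 10.3 CPM per kb in GEM-BCC and 9.88 in Tp-BCC. It ran from 5.63 to 18.4 CPM (median 15.9) in GEM-BCC and was 15.1, 13.3, 14.1 and 8.42 CPM in TP1 to TP4, wholly within the GEM-BCC range, with a log2 change of -0.06 ± 0.35 (SE; adjusted p = 0.920) that changed sign under 4 of 25 other settings. Lyve1, a hyaluronan receptor of lymphatic vessels and of some macrophages, ran from 0.109 to 5.47 CPM (median 0.758) in GEM-BCC and was 2.83, 2.06, 3.41 and 2.07 CPM in TP1 to TP4. All 4 Tp-BCC tumors lay above the GEM-BCC median and below GEM3, and the log2 fold change was 0.83 ± 0.71 (SE; adjusted p = 0.429). Macrophage markers summed to 89.7 to 293 CPM in GEM-BCC and 219 to 318 CPM in Tp-BCC, with 1 of 10 tested markers higher, and their part in the level of Lyve1 was not tested. Mmrn1, a matrix protein of lymphatic endothelium and platelets, had 0 counts in GEM6 and in TP1, which allows up to 0.0897 CPM and 0.177 CPM, and reached 3.64 CPM in GEM3. Its log2 change of -0.97 ± 1.13 (SE) did not pass (adjusted p = 0.566). Within GEM-BCC, GEM1, GEM3 and GEM8 were the 3 highest tumors for Prox1, Mmrn1 and Lyve1 alike.

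The 2 pericyte genes did not pass in either direction, and their median log2 fold change was 0.14. Rgs5 restrains G protein signalling in pericytes and ran from 17.5 to 72.0 CPM (median 41.0) in GEM-BCC. In TP1 to TP4 it was 70.9, 16.2, 91.4 and 21.1 CPM, so that TP2 lay below and TP3 above the whole GEM-BCC range. The log2 fold change was 0.23 ± 0.42 (SE; adjusted p = 0.727). Cspg4 is the NG2 proteoglycan of pericytes, which other cells make too, and ran from 503 to 999 CPM (median 652) in GEM-BCC with 448, 938, 450 and 1083 CPM in TP1 to TP4. Here TP1 and TP3 lay below the GEM-BCC range and TP4 above it, the opposite order to Rgs5, and the log2 fold change was 0.04 ± 0.28 (SE; adjusted p = 0.932), with the other sign under 9 of 25 other settings. Per length, Cspg4 stood at 87.3 CPM per kb in GEM-BCC, against 17.6 for Rgs5 and, outside the 47, 1.32 for Kcnj8, a potassium channel subunit of pericytes.

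Among angiogenic factors and tip cell genes 2 of 7 were higher, Vegfc and Apln, and 0 were lower, with a median log2 fold change of 0.83. Vegfc, the growth factor of lymphatic vessels and the ligand of Flt4, ran from 1.88 to 9.68 CPM (median 2.97) in GEM-BCC and was 17.2, 16.5, 15.1 and 9.64 CPM in TP1 to TP4. TP4 was level with GEM3, the highest GEM-BCC tumor, and the other Tp-BCC tumors stood above. The log2 fold change was 1.83 ± 0.42 (SE; adjusted p = 0.00725). Dll4, the Notch ligand of tip cells, ran from 6.36 to 16.7 CPM (median 12.0) in GEM-BCC and was 13, 24.1, 14 and 35.5 CPM in TP1 to TP4. TP1 and TP3 lay inside the GEM-BCC range, and the log2 change of 0.85 ± 0.30 (SE) missed the threshold with an adjusted p of 0.0559. Without GEM3, TP1 or TP3 it passed, with an adjusted p of 0.0492, 0.0357 and 0.0361. Pgf (placental growth factor, a ligand of Flt1), Angpt1 (the ligand that activates Tie2), Angpt2 (the ligand that can block it) and Esm1 (a tip cell proteoglycan) did not pass, with log2 fold changes of 0.83, -0.36, -0.45 and -0.83.

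**Figure D3:**
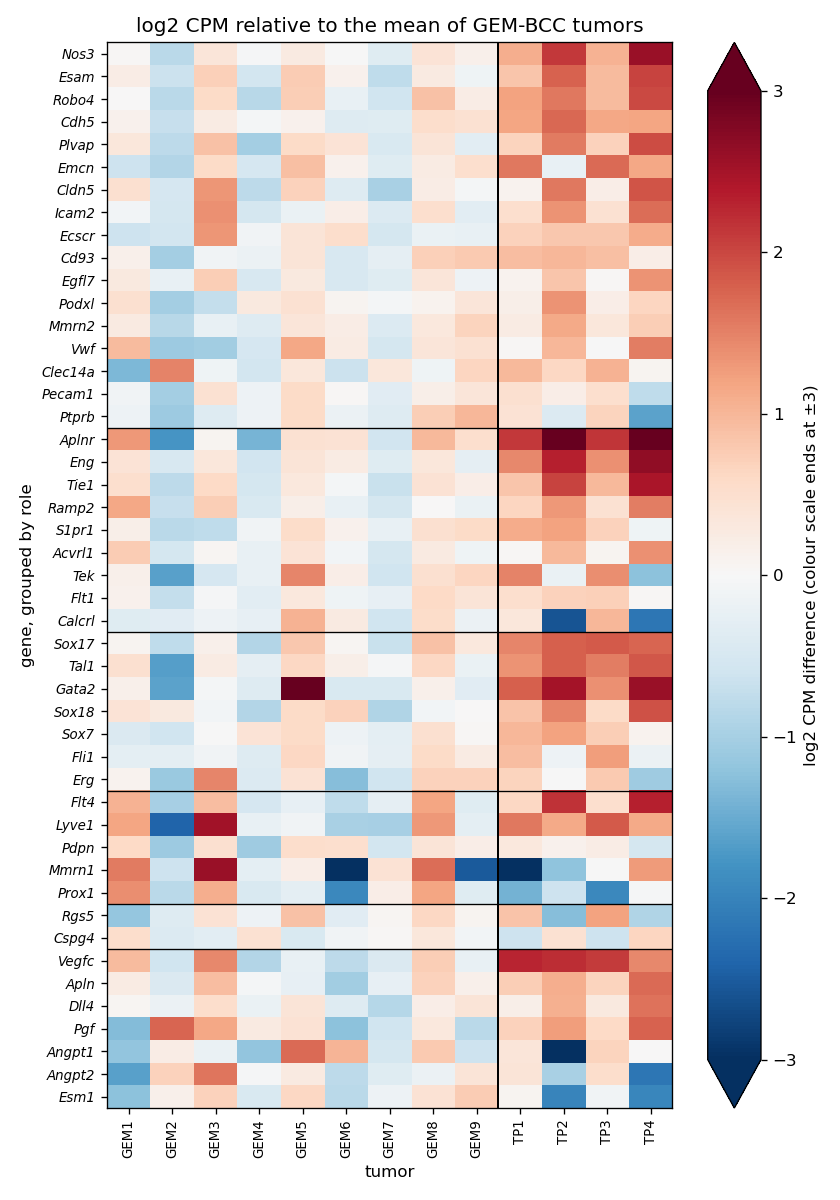
Each row is a gene, grouped by role, each column is a tumor, and colour gives the log2 CPM minus the mean of the 9 GEM-BCC tumors on a scale that ends at ±3. GEM2 is the bluest column, with the lowest GEM-BCC value in 22 of the 47 genes, and within Tp-BCC the columns TP1 and TP3 are alike and TP2 and TP4 are alike.

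Within GEM-BCC the vascular genes varied from tumor to tumor, and often together. GEM2 had the lowest value among the 9 tumors in 22 of the 47 genes, among them 7 of the 9 receptors. GEM3, from the same mouse, had the highest value in 13 genes and GEM5 in 12. The median over the 47 genes of the log2 CPM relative to the GEM-BCC mean was -0.69 in GEM2, 0.43 in GEM3 and 0.44 in GEM5, against 0.68 in TP1, 1.10 in TP2, 0.70 in TP3 and 1.18 in TP4. That median thus differed by more than 1 on the log2 scale between 2 tumors of 1 mouse. Red blood cell markers summed to 320.1 CPM in GEM2 and to 30.6 to 287 CPM in the other GEM-BCC tumors, against 38.9 to 117 CPM in Tp-BCC, and 2 of the 3 tested were lower in Tp-BCC. Their part in the levels of the vascular genes was not tested. The median SD of log2 CPM over the 47 genes was 0.62 in both models, while over all genes tested GEM-BCC had 0.44 and Tp-BCC had 0.58.

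Within Tp-BCC the order of the tumors followed the base composition of the transcripts. The correlation across genes between GC content and log2 CPM was -0.389 in TP1 and -0.473 in TP3 but 0.594 in TP2 and 0.591 in TP4 (Spearman's rho, all genes tested), against 0.365 in GEM1 and -0.312 to -0.150 in the other GEM-BCC tumors. Over the 47 genes, whose GC content ran from 37.2% to 60.9%, the difference of TP1 and TP3 minus TP2 and TP4 had a rho of -0.729 with GC content, a description over genes measured in the same 4 libraries. The AT-rich genes Calcrl (37.2% GC), Angpt1 (39.3%), Rgs5 (43.3%) and Tek (47.1%) were higher in TP1 and TP3, by 3.05, 2.42, 2.12 and 2.15 on the log2 scale. Flt4 (56.5% GC) and Cldn5 (60.5%) differed the other way, by -1.69 and -1.56. So did the AT-rich gene Mmrn1 (42.3% GC), by -1.56, at 0 to 20 counts in the Tp-BCC tumors. The difference of Angpt1 rested on TP2 with 0 counts, while TP4 had 14 counts beside 22 in TP1 and 27 in TP3. In all, 26 of the 47 genes differed by more than 1 between these pairs, and 8 did after the trend of each tumor with GC content had been removed.

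With that trend removed, 20 of the 47 genes were higher in Tp-BCC and 0 were lower, against 15.1% higher and 13.3% lower over all genes. Of the 15 genes named above, 14 still passed, Flt4 did not (adjusted p = 0.0567), and Cd93, Clec14a, Fli1, Flt1, S1pr1 and Sox7 passed in addition. The median SD within Tp-BCC fell from 0.62 to 0.34, and in GEM-BCC it went from 0.62 to 0.60. Over all genes tested it likewise fell from 0.58 to 0.36 in Tp-BCC and went from 0.44 to 0.41 in GEM-BCC. Without TP2 and TP4, 6 genes were higher (Aplnr, Cdh5, Emcn, Eng, Sox17 and Vegfc), beside 6.27% of all genes. Without TP1 and TP3, 22 genes were higher, beside 19.2% of all genes, and Calcrl, Esm1 and Rgs5 were lower, beside 23.7%. Aplnr, Cdh5, Eng, Sox17 and Vegfc therefore passed with either pair of Tp-BCC tumors. Adipocyte markers summed to 368 CPM in TP2 and 38.4 to 97.2 CPM in the other Tp-BCC tumors (32.9 to 56.4 CPM in GEM-BCC). Of the 6 adipocyte markers tested, 5 were higher in Tp-BCC and 0 were lower, with a median log2 fold change of 3.62, and in 3 of them (Cfd, Cidec and Plin4) every Tp-BCC tumor lay above every GEM-BCC tumor. Skeletal muscle markers reached 161 CPM in TP4 and 2.24 to 14.3 CPM in the others (4.22 to 9.77 CPM in GEM-BCC), with 1 of 6 tested markers higher and 0 lower. Keratinocyte markers summed to 12837 to 19615 CPM in GEM-BCC and 9383 to 22285 CPM in Tp-BCC, and fibroblast markers to 13293 to 50389 CPM and 16925 to 29330 CPM. Of 12 keratinocyte markers 1 was higher in Tp-BCC and 2 were lower, and of 12 fibroblast markers 5 were higher and 2 lower (5 and 3 with the GC trend removed). Over all genes 11.1% passed as higher and 8.35% as lower (15.1% and 13.3% with that trend removed). The part of fat, muscle and fibroblasts in the vascular levels was not tested, and leaving out TP2 and TP4 does not take away the difference in those 3 adipocyte markers, which TP1 and TP3 share.

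**Figure D4:**
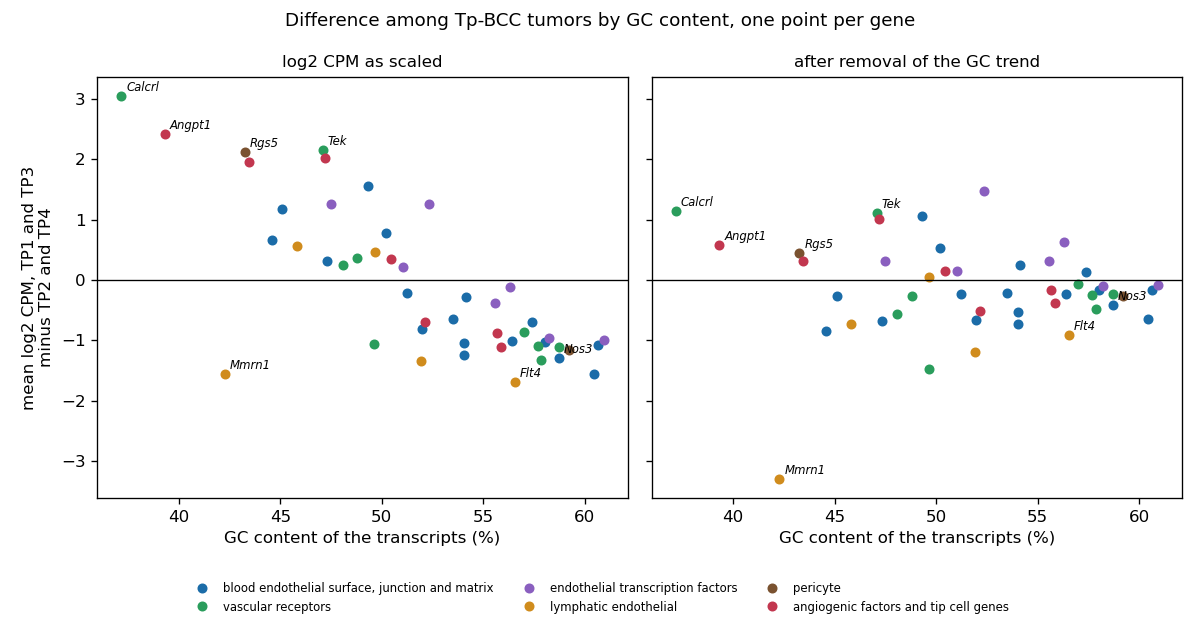
Each point is one of the 47 genes, placed by the GC content of its transcripts in percent (horizontal axis) and by the mean log2 CPM of TP1 and TP3 minus that of TP2 and TP4 (vertical axis), as scaled on the left and after removal of the GC trend on the right. On the left the points fall from Calcrl at 3.05 to below -1 at high GC content (rho of -0.729), and on the right most lie within 1 of 0 (rho of -0.135).

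Ratios of 2 genes within a tumor show whether the vascular genes kept their proportions. The log2 ratio of Cdh5 to Pecam1 averaged -0.24 ± 0.30 (SD, n = 9) over GEM-BCC tumors and 0.97 ± 0.64 (SD, n = 4) in Tp-BCC, with 0.47, 1.29, 0.41 and 1.72 in TP1 to TP4. The highest GEM-BCC tumor stood at 0.12, so the groups did not overlap, and the difference of 1.21 gave p = 0.0014 in a two-sided exact permutation test, the smallest p that 715 splits allow (adjusted over the 6 ratios, 0.0042). The ratio of Kdr, the main VEGF receptor of endothelium, to Pecam1 averaged -1.61 ± 0.46 (SD, n = 9) over GEM-BCC tumors and -0.37 ± 0.27 (SD, n = 4) in Tp-BCC. Its difference of 1.24 gave the same exact permutation p of 0.0014 (adjusted 0.0042), with -0.56, -0.17, -0.64 and -0.11 in TP1 to TP4 and at most -0.79 in GEM-BCC. Kdr and Cdh5 therefore stood higher against CD31 in every Tp-BCC tumor than in any GEM-BCC tumor. Both ratios come from the same tumors and values as the log2 fold changes of Cdh5 (1.29), Kdr (1.26) and Pecam1 (0.12). They are therefore not independent evidence of a difference.

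The other ratios did not pass. Rgs5 against Pecam1 differed by -0.13 (exact permutation p = 0.768, adjusted 0.884) and Prox1 against Pecam1 by -1.10 (exact permutation p = 0.148, adjusted 0.222). Flt4 against Flt1, both VEGF receptor genes, differed by 0.91 (exact permutation p = 0.0951, adjusted 0.190). This ratio ran from -1.43 to 0.25 in GEM-BCC and from -0.92 to 1.61 in Tp-BCC. Angpt2 against Angpt1 differed by 0.14 (exact permutation p = 0.884, adjusted 0.884) and ran from 0.87 to 4.48 in GEM-BCC and from 0.48 to 5.53 in Tp-BCC, where the top value belongs to TP2 with 0 counts of Angpt1.

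**Figure D5:**
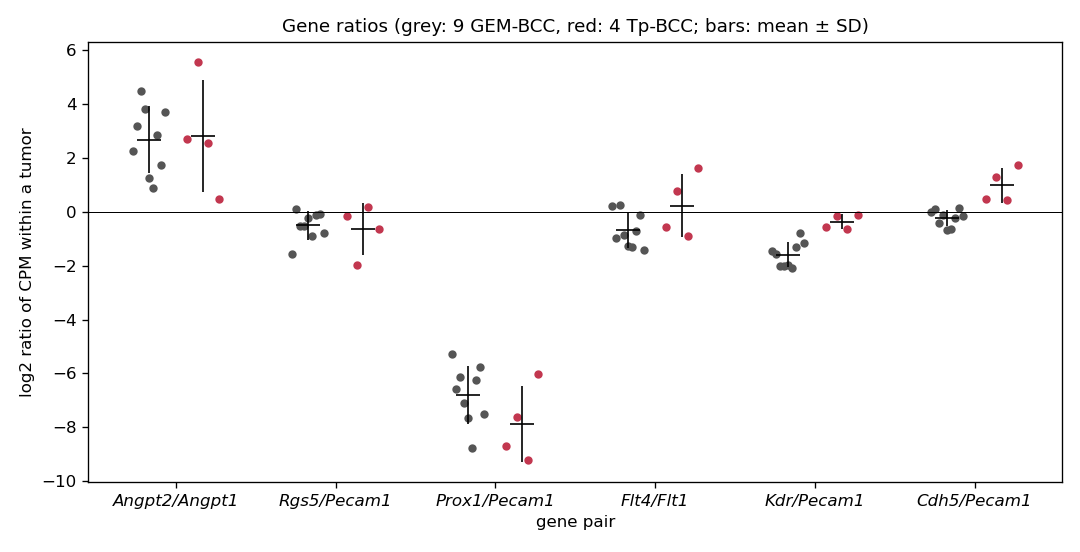
The log2 ratio of CPM within a tumor (vertical axis) is plotted for 6 gene pairs (horizontal axis), with the 9 GEM-BCC tumors in grey, the 4 Tp-BCC tumors in red, and bars for the mean and SD. The red points of Kdr/Pecam1 and Cdh5/Pecam1 lie above all grey points, while those of the other pairs overlap the grey points.

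Other vascular genes outside the 47 were counted from wider lists. Of 35 further endothelial genes tested, 13 were higher and 1 lower, beside 11.1% higher and 8.35% lower over all genes. Their median log2 fold change was 0.80. Kdr was 53.3, 57.4, 51.4 and 30.5 CPM in TP1 to TP4 and 9.19 to 36.6 CPM (median 18.7) in GEM-BCC, where TP4 alone fell inside the GEM-BCC range, and the log2 fold change was 1.26 ± 0.31 (SE; adjusted p = 0.0117). Kit, which lies next to Kdr on its chromosome, had a log2 fold change of 4.32 and an adjusted p of 3.93e-07. Cyyr1, a small membrane protein, had the highest change of the list, from at most 2.20 CPM in GEM-BCC to 16.8, 12.3, 23.9 and 7.71 CPM in TP1 to TP4 (log2 fold change 4.16 ± 0.59 (SE), adjusted p = 0.000260). Shank3, a scaffold protein, and Bcl6b, a transcriptional repressor of endothelium, followed with 1.77 (adjusted p = 0.000774) and 1.49 (adjusted p = 0.00120). The 1 lower gene was Tm4sf1, a membrane protein of endothelial and tumor cells, at -1.38 (adjusted p = 0.00242), and it no longer passed with the GC trend removed (adjusted p = 0.0582).

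Of 15 further pericyte and smooth muscle genes, 2 were higher and 0 lower (2 and 1 with the GC trend removed). Over all genes 11.1% passed as higher and 8.35% as lower (15.1% and 13.3% with that trend removed). These are the shares to set beside this list and the lymphatic list. Pdgfrb, the receptor that draws pericytes to vessels and that fibroblasts carry too, was 148, 281, 151 and 300 CPM in TP1 to TP4 and 63.5 to 125 CPM (median 93.6) in GEM-BCC, with a log2 change of 1.25 ± 0.25 (SE; adjusted p = 0.00306). Des (desmin), an intermediate filament of pericytes and of muscle, had 2.91 ± 0.58 (SE; adjusted p = 0.00302), and was 33.8 CPM in TP4, the tumor with the highest muscle markers, and 5.27 to 11.2 CPM in the other Tp-BCC tumors. The pericyte channel genes Kcnj8 and Abcc9 had 0.07 (adjusted p = 0.902) and 0.19 (adjusted p = 0.785), and the smooth muscle genes Acta2 and Myh11 had 0.10 (adjusted p = 0.872) and 0.03 (adjusted p = 0.973). Of 7 further lymphatic genes 0 were higher and 1 was lower, Gja1 (connexin 43, made by many cells), at -1.06 (adjusted p = 0.0349). That call was lost without GEM8, GEM9, TP2 or TP4, with an adjusted p of up to 0.110.

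Of 15 further angiogenic ligands and inhibitors 2 were higher and 2 lower, beside 11.1% higher and 8.35% lower over all genes. Vegfa, the ligand of Kdr, ran from 45 to 149 CPM (median 65.0) in GEM-BCC and was 64.1, 64.1, 88.6 and 50.9 CPM in TP1 to TP4, wholly within the GEM-BCC range, with a log2 change of -0.08 ± 0.29 (SE; adjusted p = 0.878). Vegfd, the other ligand of Flt4, rose from at most 3.07 CPM in GEM-BCC to 5.36, 8.29, 5.39 and 7.92 CPM in TP1 to TP4 (log2 fold change 2.06 ± 0.39 (SE), adjusted p = 0.00227). Fgf2, the basic fibroblast growth factor, had the highest change of that list, 4.10 ± 0.65 (SE; adjusted p = 0.000626), with 28.9, 7.01, 39.6 and 5.50 CPM in TP1 to TP4 and at most 2.78 CPM in GEM-BCC. Thbs1, thrombospondin 1, an inhibitor of vessel growth, fell by 2.12 on the log2 scale (adjusted p = 0.000951), from 62.0 to 276 CPM in GEM-BCC to 38.4, 47.6, 34.5 and 22.8 CPM in TP1 to TP4. The chemokine Cxcl12 also fell, by 1.14 on the log2 scale (adjusted p = 0.0418), a call lost with the GC trend removed (adjusted p = 0.0925).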

How the data were processed

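RNA from 13 whole tumors was enriched for poly(A) RNA and sequenced, 1 library per tumor. The authors cleaned the reads, aligned them to GRCm39 with Bowtie2 2.3.4.3 and estimated gene levels with RSEM 1.3.1, and deposited expected counts that were not normalized, in 1 table of 21100 genes. Of these, 16687 had a value in all 13 tumors.

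The expected counts were rounded to whole numbers. The 14390 genes that had a value in every tumor and reached 10 counts in 4 or more tumors were fitted with edgeR 4.0.16 (R 4.3.3) by its robust quasi-likelihood test after TMM scaling, with Benjamini-Hochberg adjustment over all of them. DESeq2 1.42.0 was an alternative. CPM values are TMM scaled, and log2 CPM uses a prior count of 2. Levels per kb use the median transcript length, and GC content the transcripts, of GENCODE for GRCm38. The GC trend of each tumor was removed by a lowess curve (span 0.3) through edgeR offsets, a step added after the data were seen. Ratios were compared by two-sided exact permutation over all 715 splits, adjusted over the 6 ratios. The fit was checked on simulated counts that held no GC trend, no shared mice and no batch, so the check does not cover these features. Totals of 15388027 to 32629102 counts put 3 counts at 0.0857 to 0.214 CPM, and intervals of this kind cover counting error only.

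The 47 genes and all lists were chosen with earlier results of these data known. Values in every tumor are given for genes that passed and for the 2 genes of highest mean CPM per role, and from the wider lists for Kdr, Vegfa and up to 3 genes of lowest adjusted p under 0.05 per list. Further genes were named after their values were seen, as partners of these or as the remaining genes of a small count. Of the 7 GEM-BCC mice, 2 gave 2 tumors each, so p-values measure the spread between tumors, and counts summed per mouse were an alternative. Tumor numbers do not pair the models. Counting was strand-specific per the study's methods.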

Additional observations from a re-analysis of the deposited data

Results flagged for a closer look

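In 5 of 94 sets of tumors (47 genes in each of the 2 models), 1 tumor lay far from the rest by Dixon's criterion, where chance gives about 1 in 20. Cdh5 was 157.6 CPM in TP2, the highest of the 4 Tp-BCC tumors, while the other Tp-BCC tumors lay between 107 and 109 CPM. Cd93, a receptor of endothelial and myeloid cells, was 46.6 CPM in TP4 and 75.9 to 81.8 CPM in the other Tp-BCC tumors. Tal1 was 0.291 CPM in GEM2, the lowest of the GEM-BCC tumors. Gata2 was 14.9 CPM in GEM5 with a GEM-BCC median of 1.42 CPM. Angpt1 had 0 counts in TP2, which allows up to 0.193 CPM, and 0.999 to 1.62 CPM in the other Tp-BCC tumors.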

How the results depend on the processing

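With 4 Tp-BCC tumors from 1 donor tumor and 13 libraries in 2 batches, small differences could not be resolved. The direction stayed positive for the 15 genes that passed under all 25 alternatives. Leaving out 1 tumor gave 9 (without TP4, beside 6.78% of all genes) to 19 (without GEM3, beside 11.3%) genes higher, 0 lower, and 1548 to 3020 passing among all genes (2792 with all tumors, 1836 without TP4). Without TP2 and TP4, 6 genes were higher and 1562 of all genes passed, and without TP1 and TP3, 3 were lower and 6183 passed. DESeq2 gave 19 higher, beside 13.1% of all genes, and 3743 passing, and GC correction gave 20, beside 15.1%, and 4080. Library size scaling gave 13 (beside 9.62%), the stricter filter 14 of 45 tested (10.4%) and summing per mouse 15 (10.1%). Library size scaling lost Emcn and Flt4, and the stricter filter lost Emcn. Summing per mouse lost Emcn and gained Icam2. With a tumor number block 178 genes passed and 0 of the 47. Same-numbered tumors came from different mice, and the labels give no pairing by number. Only numbers 1 to 4 occur in both models, so the block leaves few tumors to compare. Same-numbered tumors correlated at -0.38 to -0.10 with the GC trend left in, which cannot decide whether numbers pair. Leaving out 1 tumor moved the difference of Angpt2/Angpt1 from -0.76 to 0.92, Rgs5/Pecam1 from -0.41 to 0.31 and Flt4/Flt1 from 0.45 to 1.29 (adjusted exact permutation p = 0.0455 without TP3). GC correction turned Rgs5/Pecam1 to 0.29.

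Signs turned in genes that did not pass, and the cause was not tested. Erg was -0.0110 with DESeq2 size factors, -0.00527 with the stricter filter, -0.0153 with no filter, -0.0112 in DESeq2, -0.0122 after GC correction and -0.70 without TP1 and TP3. Cspg4 was -0.0849 with library sizes, -0.10 with the block, -0.35 after GC correction and -0.66 without TP2 and TP4. Pdpn was 0.31 with the block, 0.0715 after GC correction and 0.13 without TP2 and TP4, where Vegfa was 0.11. Without TP1 and TP3, Pecam1 was -0.27 and Rgs5 -1.19. Leaving out 1 tumor gave -0.22 to 0.24 for Erg, -0.27 to 0.22 for Cspg4, -0.16 to 0.0555 for Pdpn, -0.00170 to 0.30 for Pecam1, -0.23 to 0.50 for Rgs5 and -0.24 to 0.14 for Vegfa.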

Other observations

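Gene groups around the vessels that the report did not cover differed in part. Of the arterial genes in the wider endothelial list, Gja4 and Gja5, the connexins of arterial endothelium, rose by log2 fold changes of 1.47 (adjusted p = 0.00289) and 1.53 (adjusted p = 0.0132), and Sema3g, an arterial semaphorin, by 2.08 (adjusted p = 0.00214). Sema3g was 91.9, 191, 95.7 and 220 CPM in TP1 to TP4 and at most 73.1 CPM in GEM-BCC. Efnb2 (ephrin B2), the classic arterial marker, which epithelial cells make too, had -0.25 (adjusted p = 0.681). The venous genes Nr2f2 and Ephb4 had 1.11 (adjusted p = 0.0952) and 0.60 (adjusted p = 0.136). Of the Notch genes, Notch4, the endothelial receptor, had 1.16 (adjusted p = 0.00354), while Jag1 had -0.94 (adjusted p = 0.102). These genes were singled out after their values were seen.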
